A study of Mus musculus with 6 samples.

Results

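A set of 10 genes of the Wnt and beta-catenin pathway, out of 55487 gene rows in the count tables, was examined in mouse hepatocytes. They were taken as a listed set of symbols, with no value in the rule, and each matched 1 Ensembl identifier: *Ctnnb1*, *Lgr4*, *Lgr5*, *Rnf43*, *Znrf3*, *Axin2*, *Nkd1*, *Tbx3*, *Glul* and *Slc1a2*. Of the 10, 7 passed the filter on low counts and were tested; *Lgr5*, *Axin2* and *Nkd1* did not. The hepatocytes came from adult mice of 6 to 8 weeks, and RNA was taken 48 h after the cells were isolated. One group was AEG-1-WT and the other homozygous for AEG-1-C75S, both bred from AEG-1-C75S heterozygotes, and all samples carried the treatment label Control. AEG-1, the product of *Mtdh*, is a membrane protein, and C75S replaces a cysteine, the palmitoylated residue of AEG-1, by serine. There were 3 libraries per genotype. Whether these came from separate animals is not given in the labels, so p-values measure the spread between libraries, which may be technical.

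In the canonical Wnt pathway, a ligand bound to a Frizzled receptor and an LRP co-receptor stops a destruction complex from degrading beta-catenin, which then enters the nucleus and switches on genes together with TCF/LEF factors. Many of those targets are themselves inhibitors of the pathway and form a negative feedback loop. In the liver, Wnt signals from endothelial cells of the central vein set up the perivenous zone, where hepatocytes express glutamine synthetase and several cytochromes P450, while periportal hepatocytes express genes of urea synthesis and gluconeogenesis.

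A pair of sequences upstream of RefSeq starts shows where the letters of a TCF/LEF site were and were not found. RefSeq promoters (GRCm38.p6, 250 bases before to 50 after a start) were available for 7 of the 10 genes. Both strands were searched for CTTTGAT and CTTTGAA, 2 forms of the TCF/LEF core that differ in their last letter, so that no stretch is counted under both on the same strand. *Slc1a2* alone of the 7 held one, an ATCAAAG, the reverse complement of CTTTGAT, whose first base lies 207 bases before the RefSeq start. This start lies inside *Slc1a2*, which begins at 102658659 on the plus strand of chromosome 2, so it is not the gene's first start. The 250 bases before it also reach an annotated exon of *Slc1a2*, which is not printed. Of 27025 genes with a promoter of 300 bases, 9.88% held either form. *Axin2*, the textbook feedback target, is shown for comparison. Its window held neither form, which says only that these letters are not in it. Both stretches are on the plus strand and outside GENCODE M21 exons, with the core in capitals.
*Slc1a2*, chr2:102706188-102706355: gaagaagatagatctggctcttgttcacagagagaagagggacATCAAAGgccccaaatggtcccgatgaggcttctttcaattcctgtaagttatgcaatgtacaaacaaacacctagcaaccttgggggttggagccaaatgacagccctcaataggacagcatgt
*Axin2*, chr11:108920099-108920348: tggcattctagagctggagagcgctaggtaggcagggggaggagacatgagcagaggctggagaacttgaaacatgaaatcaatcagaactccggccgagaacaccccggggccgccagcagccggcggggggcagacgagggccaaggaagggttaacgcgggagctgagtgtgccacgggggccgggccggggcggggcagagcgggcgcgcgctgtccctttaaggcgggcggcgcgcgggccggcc

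The libraries held 16944723 to 21044292 reads on genes. Hepatocyte markers were abundant, with *Alb* at 60610 CPM (counts per 1e+06 counts) in C75S and 67140 in WT. Endothelial markers, from the cells that supply Wnt ligands in the liver, had 7 of 8 genes with at least 3 counts in every library, and a summed level of 35.7 to 47.0 CPM in C75S and 34.6 to 46.25 in WT. *Stab2* gave most of that sum, at 24.9 and 26.4 CPM. Of the 6 tested endothelial markers 4 had positive log2 fold changes, and the median of the 6 was 0.51. The most abundant, *Stab2*, and *Egfl7* had negative values, at -0.09 and -0.12. Genotypes did not overlap in 3 of the 6, beside 18% of all genes tested, and all 3 were higher in C75S. These were *Lyve1* (2.47 against 1.36 CPM), *Pecam1* (3.19 against 1.97) and *Kdr* (0.906 against 0.562), at 10 to 71 reads per library. edgeR called 0 of the 6, with 2 at an unadjusted p-value under 0.05, and the part of these cells in the results on the Wnt genes was not tested. For Kupffer cells 2 of 7 markers had at least 3 counts in every library, and for stellate cells 3 of 7. Their sums were 96.0 to 140.1 and 52.1 to 69.6 CPM in C75S, against 102 to 134 and 67.4 to 90.4 CPM in WT, and each was mostly 1 gene, *Cd68* for Kupffer cells and *Reln* for stellate cells. The defining Kupffer cell genes *Adgre1* and *Clec4f* had 1 and 4 reads over all libraries. *Mtdh* itself was at 199.8 ± 10.5 CPM in C75S and 197 ± 5.18 in WT (mean ± SD of 3 libraries each; edgeR adjusted p = 0.909).

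Per exon length, the 10 genes spanned more than 3 orders of magnitude in these hepatocytes. *Ctnnb1*, which encodes beta-catenin, was highest at a median of 269 TPM (a level per exon length, scaled to the same total in every library; 261 to 284 over the 6 libraries) and ranked 377 of 12741 tested genes. *Glul* followed at 45 TPM (42.3 to 49.9), then *Lgr4* at 24.3 (21.5 to 26.5), and none of these ranges overlapped the next. *Rnf43* (6.19 to 7.66), *Znrf3* (4.52 to 6.28) and *Tbx3* (4.01 to 5.39) formed a group in which neighbours overlapped. *Slc1a2* was at 0.212 TPM (0.0877 to 0.376), rank 12663, and overlapped *Axin2* at 0.130, *Nkd1* at 0.0653 and *Lgr5* at 0.0537. The pathway's transducer, 1 of its 2 listed R-spondin receptors and both receptor-degrading ligases were therefore measured well above the count floor, and the feedback genes *Axin2* and *Nkd1* and the stem cell marker *Lgr5* near it.

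**Figure D1:**
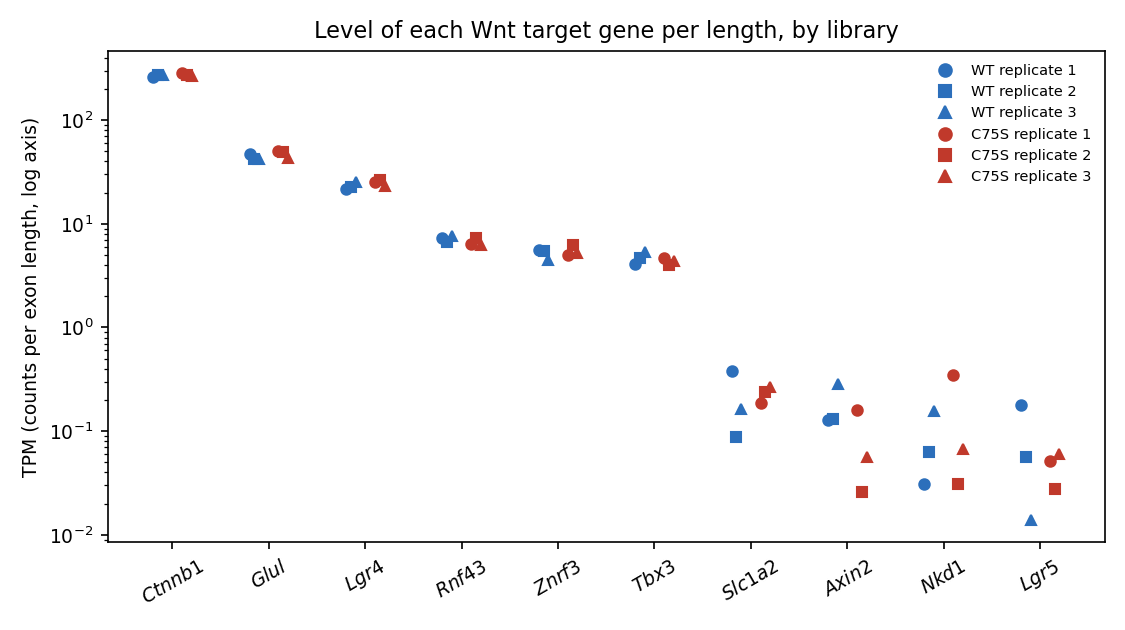
Level of each of the 10 genes in TPM (log axis) in the 6 libraries, WT in blue and C75S in red, with symbols for replicates. *Ctnnb1* lies at 261 to 284 TPM, 6 genes lie above 4 TPM in every library, and the other 4 lie under 0.4 TPM with no gap between them.

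Between genotypes, edgeR's quasi-likelihood test called 0 of the 7 tested genes at the adjusted threshold of 0.05, and 0 had an unadjusted p-value under 0.05. DESeq2 and limma-voom called 0 as well. Over all 12741 genes tested, 3.11% were called (1.74% higher and 1.37% lower in C75S) and 13.4% had an unadjusted p-value under 0.05. C75S and WT libraries overlapped in all 7 genes, whereas 18% of all genes tested showed no overlap. The median log2 fold change of the 7 genes was 0.08, with 5 positive and 2 negative values. Over all genes tested the median was -0.003 and 50.9% of values were negative. With 7 genes, a share called of 0 is near the background share. In bulk RNA, fewer cells of a type and less RNA per cell cannot be told apart.

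*Ctnnb1* (ENSMUSG00000006932, chromosome 9, 120929216 to 120960507 of GRCm38, plus strand) was at 482, 469 and 476 CPM in C75S replicates 1 to 3 and at 455.5, 475 and 476 CPM in WT replicates 1 to 3. WT replicate 1 was the lowest library and C75S replicate 1 the highest, and the groups overlapped. Its log2 fold change, here and below C75S over WT, was 0.02 (SE 0.05, edgeR adjusted p = 0.907), with a 95% interval in fold from 0.947 to 1.09. Beta-catenin is controlled mainly through the stability of the protein, which RNA counts do not read.

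R-spondin receptors raise Wnt sensitivity by removing the ligases Rnf43 and Znrf3 from the cell surface. *Lgr4* (ENSMUSG00000050199, chromosome 2, 109917647 to 110014257, plus strand) was at 48.5, 52.3 and 47.8 CPM in C75S and at 42.45, 44.8 and 50.8 CPM in WT. The highest WT library, replicate 3, lay above 2 of the C75S libraries. Its log2 fold change was 0.11 (SE 0.07, edgeR adjusted p = 0.549, interval in fold 0.975 to 1.19). *Lgr5* (ENSMUSG00000020140, chromosome 10, 115450311 to 115587780, minus strand), which marks stem cells in several epithelia and perivenous hepatocytes in liver, had 3, 2 and 4 reads in C75S and 13, 4 and 1 in WT. WT replicate 1 held 13 of the 18 WT reads. A count of 3 is 0.143 to 0.177 CPM in these libraries, so no fold is given for *Lgr5*.

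Rnf43 and Znrf3 are ubiquitin ligases of the plasma membrane that clear Frizzled receptors and are themselves Wnt targets. *Rnf43* (ENSMUSG00000034177, chromosome 11, 87662722 to 87735539, plus strand) was at 13.7, 16.1 and 14.1 CPM in C75S and at 16.1, 14.9 and 17.1 in WT. C75S replicate 2 lay within the WT range. *Znrf3* (ENSMUSG00000041961, chromosome 11, 5276324 to 5444847, minus strand) was at 12.98, 16.65 and 14.4 CPM in C75S and at 14.8, 14.7 and 12.1 in WT, so that both the highest and the lowest values came from single libraries of opposite groups. The 2 ligases had log2 fold changes of opposite sign, -0.13 (SE 0.10) for *Rnf43* and 0.08 (SE 0.11) for *Znrf3*, with edgeR adjusted p-values of 0.654 and 0.823. Intervals in fold were 0.790 to 1.06 and 0.901 to 1.25. The sign for *Znrf3* depended on which libraries were included, with -0.02 when C75S replicate 2 was dropped and -0.004 when WT replicate 3 was dropped (edgeR adjusted p = 0.977 and 0.997). *Rnf43* overlaps *1110028F11Rik* on the same strand, and reads in that overlap could be assigned to neither.

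Axin2 and Nkd1 act inside the cell, Axin2 as a scaffold of the destruction complex and Nkd1 through Dishevelled. *Axin2* (ENSMUSG00000000142, chromosome 11, 108920349 to 108950783, plus strand) had 5, 1 and 2 reads in C75S and 5, 5 and 11 in WT. Summed over libraries this was 8 reads (exact Poisson 95% interval 3.45 to 15.8) against 21 (13 to 32.1), intervals that cover counting error only and that overlap. *Nkd1* (ENSMUSG00000031661, chromosome 8, 88521354 to 88594884, plus strand) had 9, 1 and 2 reads in C75S and 1, 2 and 5 in WT, with 9 of its 12 C75S reads in replicate 1. In an edgeR fit with no filter beyond 1 count, the adjusted p-values of *Axin2*, *Nkd1* and *Lgr5* were 0.732, 0.806 and 0.734. The unadjusted edgeR p-values of that fit were 0.165, 0.477 and 0.35. The 3 genes had at least 1 read in every library. No difference between genotypes was called, and so few reads cannot show that there was none.

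**Figure D2:**
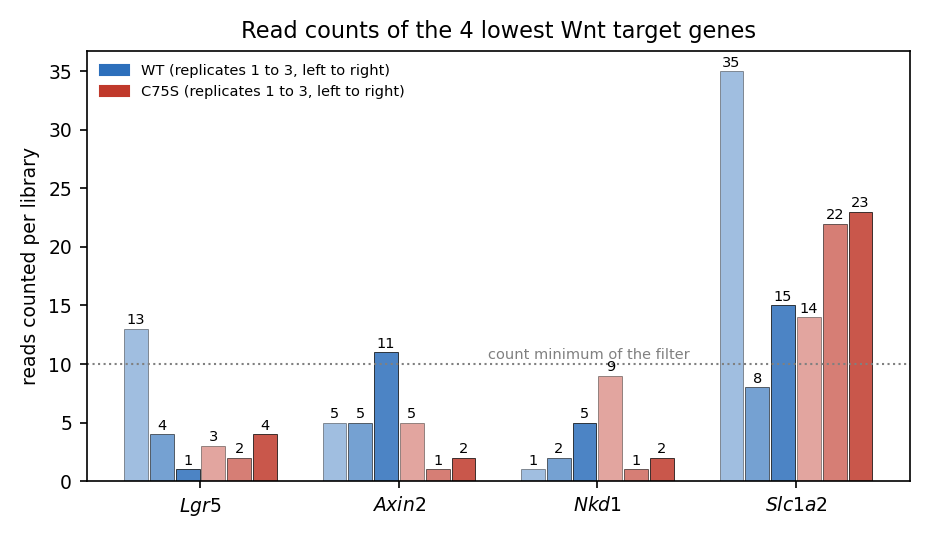
Reads counted for the 4 lowest genes in each library, WT in blue and C75S in red, with replicates 1 to 3 from left to right and the count of 10 used by the filter as a dotted line. *Lgr5* reached 13 reads and *Slc1a2* 35 in WT replicate 1, while *Axin2* was highest in WT replicate 3 at 11 reads.

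Of the targets with other roles, Tbx3 is a T-box transcriptional repressor and a beta-catenin target in liver. *Tbx3* (ENSMUSG00000018604, chromosome 5, 119670669 to 119684724, plus strand) was at 10.2, 8.92 and 10.2 CPM in C75S and at 9.12, 10.5 and 12.1 in WT. WT replicate 3 was the highest library. The log2 fold change was -0.12 (SE 0.13, edgeR adjusted p = 0.768, interval in fold 0.767 to 1.11). Without WT replicate 3 it was -0.006.

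*Glul* (ENSMUSG00000026473, chromosome 1, 153899944 to 153909723, plus strand) encodes glutamine synthetase, which detoxifies ammonia and in liver is expressed in the hepatocytes next to the central vein. It was at 54.3, 54.5 and 50.2 CPM in C75S and at 52.1, 47.6 and 47.9 in WT. WT replicate 1 lay above C75S replicate 3, so the groups overlapped. The log2 fold change was 0.11 (SE 0.06, edgeR adjusted p = 0.505), with an interval in fold from 0.984 to 1.18. Its longest transcript is 96.8% identical to the pseudogene *Glns-ps1* over 1126 of 2792 bases. That copy had 5 reads in all libraries together, and reads mapping to both were not counted to genes.

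*Slc1a2* (ENSMUSG00000005089, chromosome 2, 102658659 to 102790784, plus strand), a glutamate transporter best known from astrocytes and found with glutamine synthetase in perivenous hepatocytes, had 14, 22 and 23 reads in C75S and 35, 8 and 15 in WT. Both the highest and the lowest library were WT. In CPM this was 0.804, 1.04 and 1.23 in C75S against 1.66, 0.390 and 0.728 in WT. The log2 fold change was 0.15 (SE 0.43, edgeR adjusted p = 0.933), and the interval in fold ran from 0.594 to 2.06. Without WT replicate 1 the value was 0.88, without WT replicate 2 it was -0.22, and without WT replicate 3 it was -0.001, so neither size nor direction can be read at this depth.

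**Figure D3:**
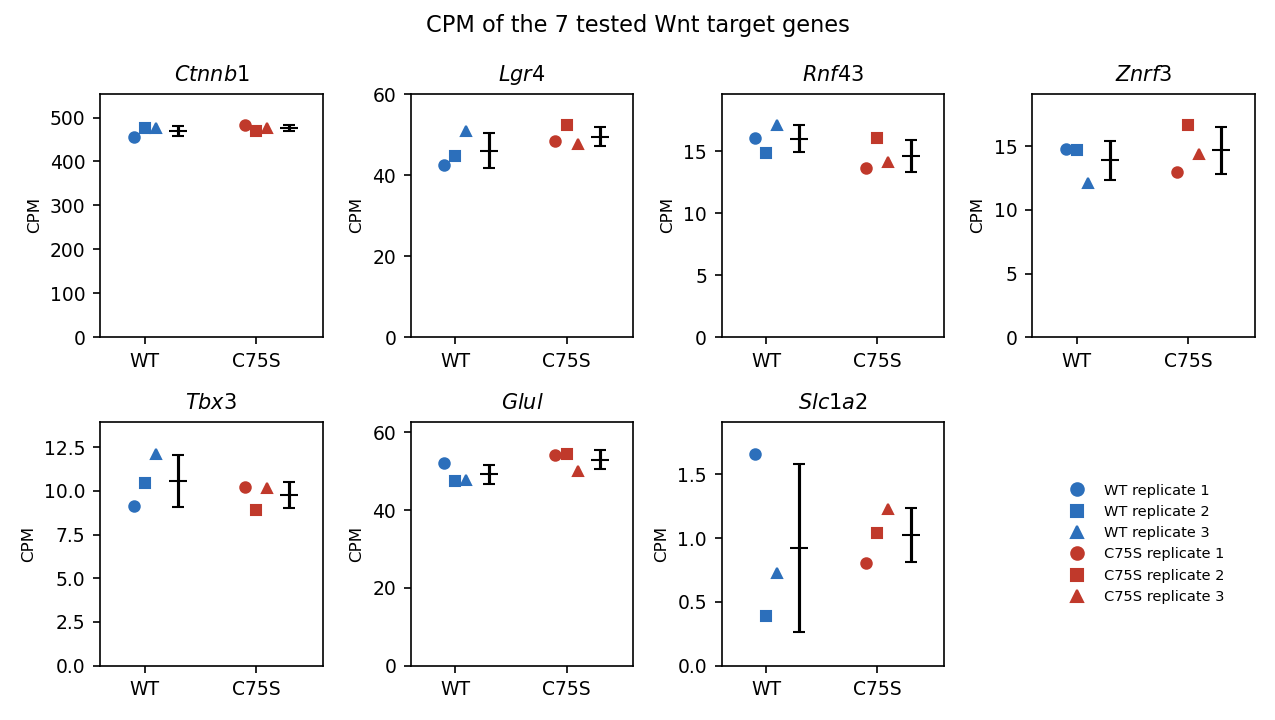
CPM of the 7 tested genes in each library (WT blue, C75S red, symbols for replicates), with the mean and SD of each group in black and axes starting at 0. The 2 groups overlap in each panel, from *Ctnnb1*, the highest, to *Slc1a2*, where WT spans 0.390 to 1.66 CPM.

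Part of the spread among libraries was counting noise. For *Ctnnb1* the coefficient of variation was 1.37% in C75S and 2.5% in WT, where read counting alone gives 1.05% and 1.01%. For *Tbx3* it was 7.54% and 14.3% against 7.35% and 6.76%. *Slc1a2* varied by 20.8% in C75S, under the 22.5% of counting alone, and by 71.1% in WT against 22.7%. The WT libraries thus varied in *Slc1a2* by more than counting alone gives.

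**Figure D4:**
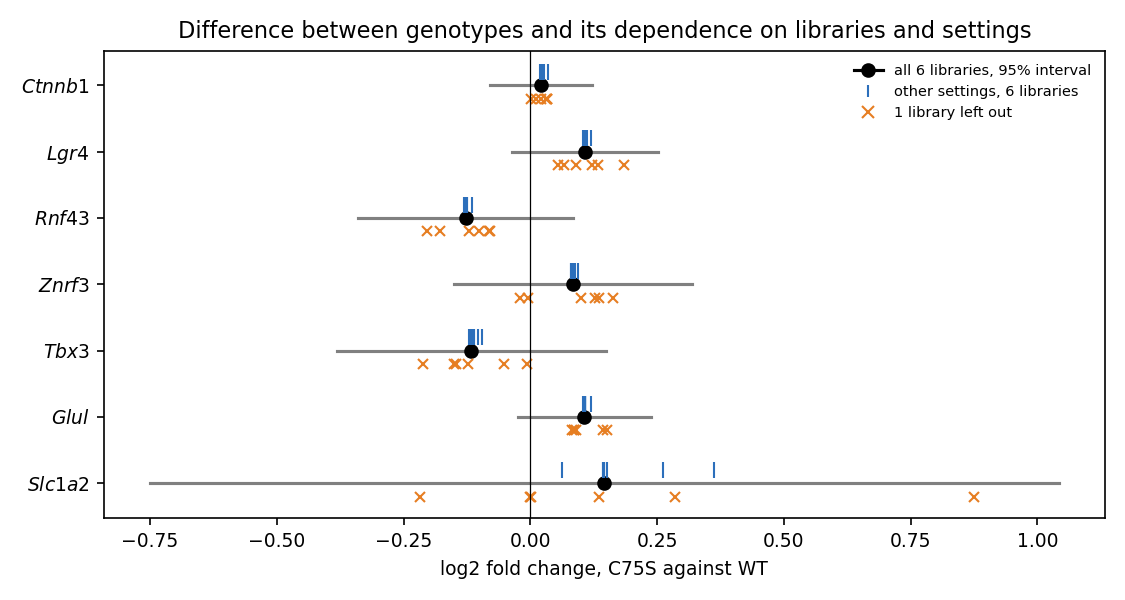
Log2 fold change (C75S over WT) for the 7 tested genes: black points with 95% intervals for all 6 libraries, blue ticks for other settings with 6 libraries, orange crosses with 1 library left out. Each interval includes 0, and the crosses of *Znrf3* and *Slc1a2* fall on both sides of 0.

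Around these 10 genes, the machinery of the pathway was followed in 5 lists with 86 genes, of which 46 could be tested. Of these, 0 were called higher and 2 lower in C75S, a share of 4.35% lower beside 1.37% of all genes. Values were negative for 33 of the 46 (50.9% of all genes), with a median of -0.055. Among ligands and secretion factors 5 of 25 were tested, and 12 of the 25 had no read in any library. *Wnt2*, *Wnt9b* and *Rspo3*, known from endothelial cells of the central vein and named after their values were seen, had 1, 6 and 21 reads over all libraries. The called gene was *Porcn*, the acyltransferase that attaches the lipid Wnt ligands need for secretion. *Porcn* was at 19.2, 19.3 and 26.5 CPM in C75S and at 29.9, 31.97 and 29.2 in WT, and fell by 0.49 on the log2 scale (SE 0.10, edgeR adjusted p = 0.0103). All C75S libraries lay below all WT libraries, with C75S replicate 3 nearest to WT. The call was lost without WT replicate 2 (edgeR adjusted p = 0.0739).

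The receptor list had 11 of 16 genes tested and 0 called, beside 3.11% of all genes. An unadjusted p-value under 0.05 was found for 2 of the 11, of opposite sign, beside 13.4% of all genes. The co-receptors *Lrp6* and *Lrp5*, its most abundant members by count, were at 132 ± 2.07 and 115.6 ± 4.03 CPM in C75S and at 130.5 ± 9.12 and 124 ± 5.29 in WT (mean ± SD of 3 libraries each), with edgeR adjusted p-values of 0.920 and 0.408. All 16 Dishevelled and destruction complex genes were tested and 0 were called, with 1 at an unadjusted p-value under 0.05, beside the same 13.4%. Their median log2 fold change was -0.036. *Csnk1a1*, the kinase that primes beta-catenin for degradation, was at 205 ± 3.80 CPM in C75S and 210.0 ± 6.67 in WT. *Dvl1*, a Dishevelled adaptor, was at 158 ± 3.04 CPM in C75S and 166 ± 7.20 in WT.

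Among TCF/LEF factors and cofactors 13 of 14 were tested, and *Bcl9l* alone was called. It was lower in C75S, a share of 7.69% beside 1.37% of all genes. Bcl9l is a coactivator that bridges beta-catenin and Pygopus. It was at 135, 138 and 144 CPM in C75S and at 152, 164 and 168 in WT, and fell by 0.21 on the log2 scale (SE 0.05, edgeR adjusted p = 0.0190). The groups did not overlap, where 18% of all genes showed no overlap in either direction. *Bcl9l* lost its call without C75S replicate 1 or 2 or WT replicate 2 or 3, with adjusted p-values up to 0.112. Of 15 antagonists, 1 was tested, *Kremen1*, a receptor for Dickkopf proteins, at 20.2 ± 1.05 CPM in C75S and 19.3 ± 1.29 in WT (mean ± SD of 3 libraries each; edgeR adjusted p = 0.823).

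Other canonical targets gave 1 called gene, higher in C75S, among 10 tested of 15 listed, beside 3.11% called of all genes. *Ccnd1*, which encodes cyclin D1, was at 9.65, 9.87 and 7.81 CPM in C75S and at 3.47, 4.68 and 4.997 in WT. It rose by 1.06 on the log2 scale (SE 0.16, edgeR adjusted p = 0.000228) and kept its call in all 15 alternative fits. Cyclin D1 is also a target of many growth signals. *Myc*, at 176.5 ± 4.55 CPM in C75S and 173 ± 15.5 in WT (mean ± SD of 3 libraries each), was not called (edgeR adjusted p = 0.894). Of the 10, 5 had an unadjusted p-value under 0.05, beside 13.4% of all genes, and they went both ways. *Ccnd1*, *Cd44* and *Ccn4* were higher in C75S, and *Jun* and *Vegfa* lower.

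Perivenous liver genes had 15 of 16 members tested, with 4 called higher and 0 lower in C75S, a share of 26.7% higher beside 1.74% of all genes. The list's median was 0.012, with 8 positive and 7 negative values. This list, like the others here, was chosen with earlier results of these data known, and its share was not tested. *Cyp2e1*, the ethanol-oxidising cytochrome P450, was at 109.7, 114 and 117 CPM in C75S and at 83.1, 103.6 and 89.3 in WT, a rise of 0.31 (SE 0.06, edgeR adjusted p = 0.00908). Its call was lost without WT replicate 3 (edgeR adjusted p = 0.0650). *Rgn*, the calcium-binding protein regucalcin, rose by 0.44 (SE 0.11, edgeR adjusted p = 0.0260) and missed the threshold in 5 of 6 fits with a library dropped, with adjusted p-values up to 0.157.

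*Cyp2c50* rose from 19.9 ± 1.29 to 30.3 ± 0.94 CPM and *Cyp2c54* from 5.62 ± 0.71 to 10.1 ± 1.00 CPM (SD over 3 libraries each; edgeR adjusted p = 4.85e-05 and 0.000679). Both encode drug-metabolising cytochromes P450. They are close copies, with *Cyp2c54* 95.3% identical to *Cyp2c50* over 1501 bases and 95.2% identical to *Cyp2c37* over 1513, so the split of reads among them is uncertain. *Glul*, which shares the perivenous zone, differed from these 4 genes in not being called. Whether its difference was smaller than theirs was not tested.

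Periportal genes, all 16 tested, went both ways, with 2 called higher and 2 lower, 12.5% each way beside 1.74% higher and 1.37% lower of all genes, and a median of 0.012. *Cyp2f2*, a periportal cytochrome P450, rose from 26.9 ± 3.45 to 38.9 ± 3.08 CPM, and *Cdh1*, the epithelial cadherin that binds beta-catenin at the membrane, from 108.0 ± 6.56 to 132 ± 2.17 CPM (SD over 3 libraries each; edgeR adjusted p = 0.000434 and 0.00140). *Hsd17b13*, a lipid droplet protein, fell from 1330 ± 79.5 to 1120 ± 77.0 CPM, and *G6pc*, the catalytic subunit of glucose-6-phosphatase, from 3.40 ± 0.95 to 1.64 ± 0.53 CPM (edgeR adjusted p = 0.0188 and 0.0307). With a library dropped, *Hsd17b13* missed the threshold in 3 of 6 fits and *G6pc* in 4, with adjusted p-values up to 0.143 and 0.171.

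Of the adherens junction partners, 5 of 5 were tested and 0 called, beside 3.11% of all genes. *Ctnna1*, alpha-catenin, was at 516 ± 7.25 CPM in C75S and 479.5 ± 13.5 in WT, and *Jup*, plakoglobin, a close relative of beta-catenin, at 174 ± 9.14 and 158 ± 5.47 CPM (SD over 3 libraries each; edgeR adjusted p = 0.342 and 0.160). Both had an unadjusted p-value under 0.05, beside 13.4% of all genes. For both every C75S library lay above every WT library, where 18% of all genes showed no overlap in either direction. The other 3 partners had negative log2 fold changes, and the median of the list was -0.03. The summed level of 7 cholangiocyte markers moved with the groups, at 180.4 to 234 CPM in C75S and 160.4 to 168 in WT. It stands beside the rises of *Cdh1* and *Ccnd1*, and its part in them was not tested. Of those 7, 5 had at least 3 counts in every library, *Cftr* had no read in any, and *Spp1* gave most of the sum.

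**Figure D5:**
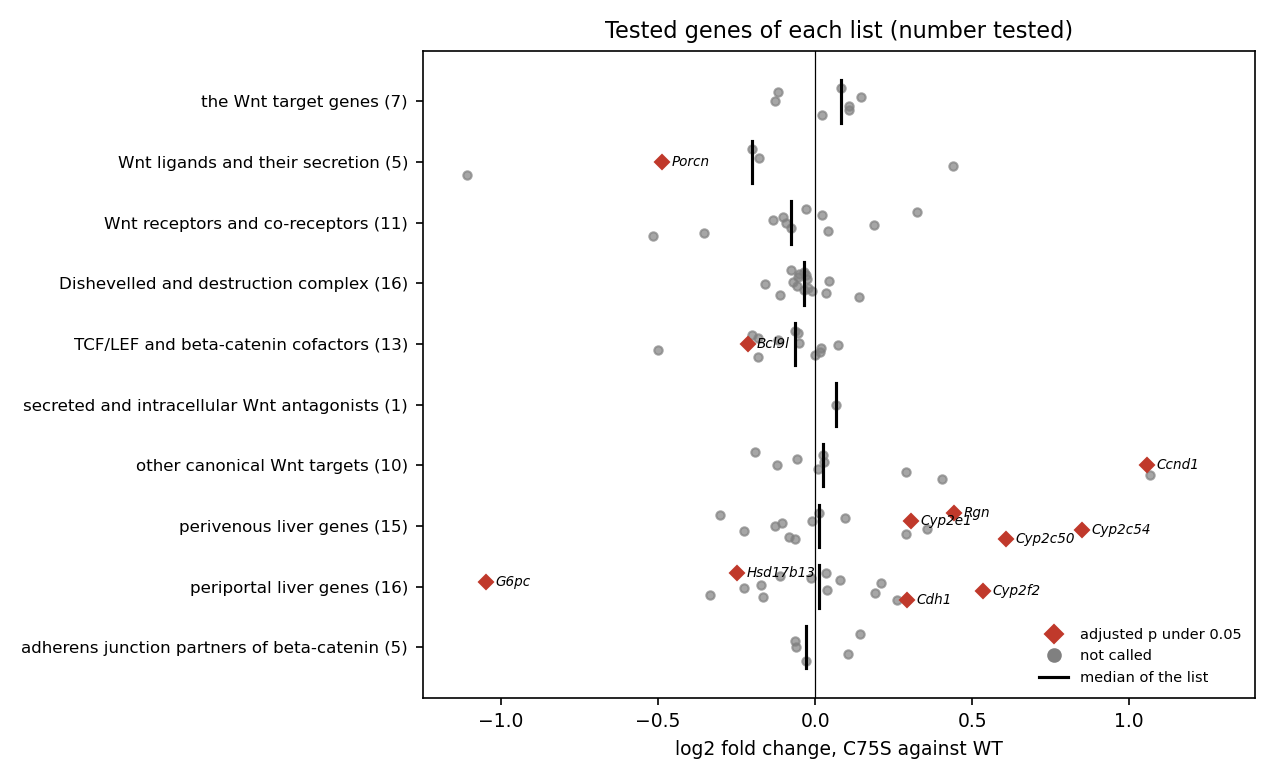
Log2 fold change (C75S over WT) for each tested gene (grey points; red diamonds where the adjusted p-value was under 0.05) by list, with black bars at list medians and numbers tested in parentheses. No red diamond stands in the row labelled the Wnt target genes, 7 tested genes that include the transducer *Ctnnb1* and the receptor *Lgr4*. Perivenous genes hold 4 on the right and periportal genes 2 on each side.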

How the data were processed

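RNA sequencing of 3 AEG-1-C75S and 3 AEG-1-WT hepatocyte libraries was used, grouped by sample title. The authors deposited raw read counts per Ensembl gene, per the file layout that STAR writes. Trim Galore 0.6.6, STAR 2.7.9a, edgeR 3.36.0 and the builds mm10 and GRCm38 are named in the submitters' processing notes, and the annotation release is not given in the sources used here. Reverse-strand counts were used, which were 32.87 to 33.93 times the forward-strand counts. In the unstranded column *Ctnnb1* held 79.0% of its reverse-strand reads; *Ulk4* and *4930593C16Rik* overlap it on the other strand. Multimapping reads (17.98% to 18.5% of reads per library) and the other summary rows were left out of tests, and unmapped reads were 4.37% to 5.81%. Libraries held 16944723 to 21044292 counts.

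Genes passing edgeR's filterByExpr (count 10, total 15) were scaled by TMM and tested with edgeR 4.0.16 in R 4.3.3 (quasi-likelihood, robust, genotype only, two-sided), with Benjamini-Hochberg adjustment over 12741 genes and a threshold of 0.05. SE is the size of the change over the square root of F, and intervals use edgeR's degrees of freedom. CPM use TMM-scaled library sizes. TPM use exon union lengths of GENCODE M21, which matched 55227 of 55487 rows. Copies were sought with BLAST 2.17.0 at 95% identity over 200 bases or more. On simulated counts for 12741 genes with 200 changed, 73.5% were recovered at 1.5-fold and 87.5% at 2-fold, 100% of them in the right direction, with 5.16% and 7.41% of calls false.

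The members and lists were chosen with earlier results of these data known, and the lists get counts and medians but no test. From the lists, called genes were named, up to 4 by p-value, or the 2 most abundant where none was called. *Myc*, *Vegfa*, *Cyp2c37* and 3 ligands, and the genes of the last part, were named after their values were seen. Alternatives were DESeq2 1.42.0, limma-voom (limma 3.58.1), scaling by library size, upper quartile or RLE, 2 other filters, unstranded counts, a replicate block and leaving out each library.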

Additional observations from a re-analysis of the deposited data

How the results depend on the processing

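The count of called genes among the 10 listed at the start was 0 in all 15 alternative fits. Among the 7 tested genes, 5 kept their direction in all 15. *Znrf3* reversed to -0.02 without C75S replicate 2 and -0.004 without WT replicate 3, (range 0.162 down to -0.02), and *Slc1a2* to -0.217 without WT replicate 2 and -0.001 without WT replicate 3 (range -0.217 to 0.875, the highest without WT replicate 1). *Lrp6* reversed to -0.034 without WT replicate 1 (range -0.034 to 0.06). The lowest unadjusted p-values with a library left out were 0.0188 for *Lgr4* (log2 fold change 0.18 without WT replicate 3) and 0.0306 for *Glul* (0.15 without WT replicate 1), with edgeR adjusted p-values of 0.265 and 0.299. Over all genes, 396 were called, 201 to 355 with 1 library left out (201 without WT replicate 2, 246 without WT replicate 3, 253 without C75S replicate 1) and 381 to 573 otherwise. Of the pathway list genes 11 were called, 6 to 13 with 1 library left out (6 without WT replicate 2, 7 without WT replicate 3) and 11 to 16 otherwise. In the main fit 92 list genes were tested, with 7.61% called higher and 4.35% lower in C75S. Over all genes tested the shares were 1.74% higher and 1.37% lower. Because earlier results were known when the lists were drawn up, the difference in shares was not tested and is no result about the pathway. Of the 11 called list genes, 6 lost their call in at least 1 fit. The titles give both genotypes the replicate numbers 1 to 3. Deviations of same-numbered libraries correlated at 0.017, -0.04 and 0.025, which showed no pairing. With 3 libraries per genotype these values cannot exclude a pairing, and the labels do not state one. With the replicate block 480 genes, 0 of the 7 tested genes of the set and 14 list genes were called. The median of all genes was -0.003, and 0.009 with library-size scaling. Depth limits *Lgr5*, *Axin2* and *Nkd1*, at 1 to 13 reads per library.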

Other observations

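Of the 92 tested genes in the pathway lists, 29 had no overlap between genotypes, beside 18% of all genes tested. The 6 that follow did not pass the adjusted threshold, lie outside the naming rule and were singled out after their values were seen. *Wnt4*, a ligand, was at 0.39 ± 0.20 CPM in C75S and 0.87 ± 0.21 in WT (mean ± SD of 3 libraries each; edgeR adjusted p = 0.279). *Fzd1*, a Frizzled receptor, was at 2.11 ± 0.41 and 3.04 ± 0.30 CPM (edgeR adjusted p = 0.332). *Ror1*, a co-receptor of noncanonical Wnt signalling, was at 11.1 ± 1.04 and 8.92 ± 0.40 CPM (edgeR adjusted p = 0.193). Of the canonical targets, *Cd44*, a hyaluronan receptor, was at 14.7 ± 1.62 and 12 ± 0.73 CPM, and *Ccn4*, a secreted matricellular protein, at 1.25 ± 0.19 and 0.597 ± 0.25 CPM (edgeR adjusted p = 0.204 and 0.192). *Jun*, an AP-1 transcription factor of the same list, was lower in C75S, at 168 ± 0.37 and 183 ± 3.93 CPM (edgeR adjusted p = 0.205).

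Ratios of 3 pairs of the 10 genes were taken within each library, per exon length, which removes the scaling between libraries. *Lgr4* to *Rnf43* was 3.96, 3.63 and 3.77 in C75S replicates 1 to 3 and 2.94, 3.36 and 3.32 in WT replicates 1 to 3, with no overlap. *Rnf43* to *Znrf3* was 1.16 to 1.27 in C75S and 1.22 to 1.69 in WT, and *Glul* to *Ctnnb1* 0.165 to 0.181 and 0.156 to 0.179, both with overlap. *Lgr4* and *Rnf43* alone each overlapped between genotypes, with log2 fold changes of opposite sign, 0.11 and -0.13. The share of all gene pairs whose ratio shows no overlap was not determined. The pairs were chosen after the single genes had been seen, and no test was made.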
